A study of Mus musculus with 6 samples.

Results

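Circadian clock genes were described in whole mouse retina at postnatal day 17, as 10 members chosen by gene symbol: Per1, Per2, Per3, Cry1, Cry2, Nr1d1, Nr1d2, Arntl, Npas2 and Dbp. All 10 were found among the 22173 genes listed in each library. The 6 libraries came from wild-type C57BL/6J pups. In the Control group (3 libraries) the pups stayed in room air, and in the group with oxygen-induced retinopathy (OIR, 3 libraries) they breathed 75% oxygen from day 7 to day 12 and room air from then to day 17. OIR is a model in which high oxygen stops and prunes the growing retinal vessels, so that the retina lacks oxygen and forms abnormal vessels once the pup is back in room air. The study compared both groups to find genes that change during this vessel growth. The labels give neither an hour of collection nor a light cycle, and a difference in that hour cannot be told apart from OIR. Nor do they say whether each library is its own animal, and the p-values then cover the spread among these samples alone, part or all of which may be technical.

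The circadian clock is a feedback loop of transcription that runs in nearly every cell. In its positive arm BMAL1 (the product of Arntl) pairs with CLOCK or with NPAS2, binds E-box sequences and switches on the Per, Cry, Nr1d1, Nr1d2 and Dbp genes. In the negative arm PER and CRY proteins return to the nucleus and block this pair, while REV-ERB alpha and beta (Nr1d1 and Nr1d2) repress Arntl and Npas2 through RORE sequences, which the activating ROR receptors share. DBP is an output factor that drives other genes through D-box sequences. The retina holds a clock of its own, which light and dopamine set and which times dopamine and melatonin signalling. Because of this loop the RNA of most members rises and falls over the day, so 1 collection time shows 1 phase only.

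The binding sequences of the loop can be read in the members' own promoters. RefSeq start sites (table build GRCm38.p6) gave windows of 300 bases, from 250 before to 50 after the start, for 9 of the 10 members and not for Per2. Each window was searched on both strands for the E-box CACGTG, its variant CACGTT, the D-box TTATGNAA, the RORE forms TAGGTCA and TGGGTCA and the cAMP element TGACGTCA. The sequences below show 1 example of each role, 5′ to 3′, with every match on either strand in capitals (the Cry1 variant is read on the opposite strand): Per1 for an E-box beside a D-box, Per3 for a pair of D-boxes, Cry1 for an E-box beside its variant, Ciart, a further clock repressor, for 3 E-boxes, and Arntl for the RORE. The first 4 are the 250 bases before the start site, and the Arntl stretch is 30 bases that lie just after the gene's second start site. They lie at chr11:69098699-69098948 (plus strand), chr4:151044666-151044915, chr10:85185055-85185304 and chr3:95882229-95882478 (each on the minus strand) and chr7:113207530-113207559 (plus strand).
Per1: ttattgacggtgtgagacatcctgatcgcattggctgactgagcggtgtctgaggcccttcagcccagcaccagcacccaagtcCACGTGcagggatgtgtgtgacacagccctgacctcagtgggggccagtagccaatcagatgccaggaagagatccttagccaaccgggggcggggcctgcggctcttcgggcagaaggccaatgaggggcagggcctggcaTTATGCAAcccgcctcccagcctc
Per3: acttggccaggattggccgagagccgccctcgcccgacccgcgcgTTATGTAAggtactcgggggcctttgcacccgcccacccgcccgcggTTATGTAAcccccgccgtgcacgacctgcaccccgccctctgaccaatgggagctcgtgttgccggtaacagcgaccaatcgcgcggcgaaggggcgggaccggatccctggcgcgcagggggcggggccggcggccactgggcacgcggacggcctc
Cry1: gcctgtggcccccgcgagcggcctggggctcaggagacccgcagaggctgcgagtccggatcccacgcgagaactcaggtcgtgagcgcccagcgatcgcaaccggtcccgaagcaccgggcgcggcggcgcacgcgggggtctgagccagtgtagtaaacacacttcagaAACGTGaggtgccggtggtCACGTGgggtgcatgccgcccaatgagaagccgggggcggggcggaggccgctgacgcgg
Ciart: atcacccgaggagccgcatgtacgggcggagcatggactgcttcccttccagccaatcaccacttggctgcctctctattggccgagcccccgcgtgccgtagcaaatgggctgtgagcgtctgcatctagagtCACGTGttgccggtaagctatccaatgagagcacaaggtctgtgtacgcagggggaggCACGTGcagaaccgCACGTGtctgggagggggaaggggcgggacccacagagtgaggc
Arntl: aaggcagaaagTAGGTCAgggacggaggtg
The E-box was found in 2 of the 9 members with a window, Per1 and Cry1, and in 7.15% of all 32851 windows of that table. Its variant was found in Cry1, Cry2 and Nr1d1 (4.68% of all windows), the D-box in Per1 and Per3 (3.38%) and TAGGTCA in Arntl alone (2.61%). No member's window held TGGGTCA (3.98%) or TGACGTCA (1.79%). The shorter core ACGTG of hypoxia elements, which also lies inside both E-box forms, was found in 6 of the 9 (19.6% of all windows). A match describes the letters in this window and does not show binding.

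The libraries were close in depth, with 35615501 to 38025623 reads recovered from the values, and the members rested on 105 to 10943 reads per library. Levels are RPKM, read counts scaled by gene length and by library depth, so that genes can be compared per length. The libraries carried the RNA of retina: 8 rod markers summed to 10702 to 13053 RPKM without OIR and 12825 to 13284 RPKM with it. Lens tissue differed between libraries, in that 22 lens genes took 6.40% of the reads of Control 3, 0.557% of those of OIR 2 and 0.0154% to 0.0588% in the other 4. Control 3 was the lowest Control library for all 10 members, as it was for 61.1% of the 12112 genes tested, and the lowest of all 6 libraries for 6 of them (37.2% of genes tested).

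Among the members, the highest RNA levels at this age were those of some of the repressors and of the output gene Dbp. In mean RPKM per length over the 6 libraries, Nr1d1 was highest, at 91.2, followed by Dbp, at 65.3, Cry2, at 38.4, and Nr1d2, at 33.8. Cry1 and Per3 were in the middle, at 14.7 and 13.2 RPKM, then came Per1 at 10.3, Arntl at 5.83, Per2 at 4.45 and Npas2 at 0.872. This order held within every library for each pair of neighbours except Cry1 and Per3, which were reversed in Control 3. Over the libraries as a set, the ranges of Cry2 and Nr1d2 and those of Cry1 and Per3 overlapped, though Cry2 was above Nr1d2 in each of the 6. The level of Arntl depends on the gene length behind it, since its values fit a length of 19267 bases and those of Dbp one of 2481.

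**Figure D1:**
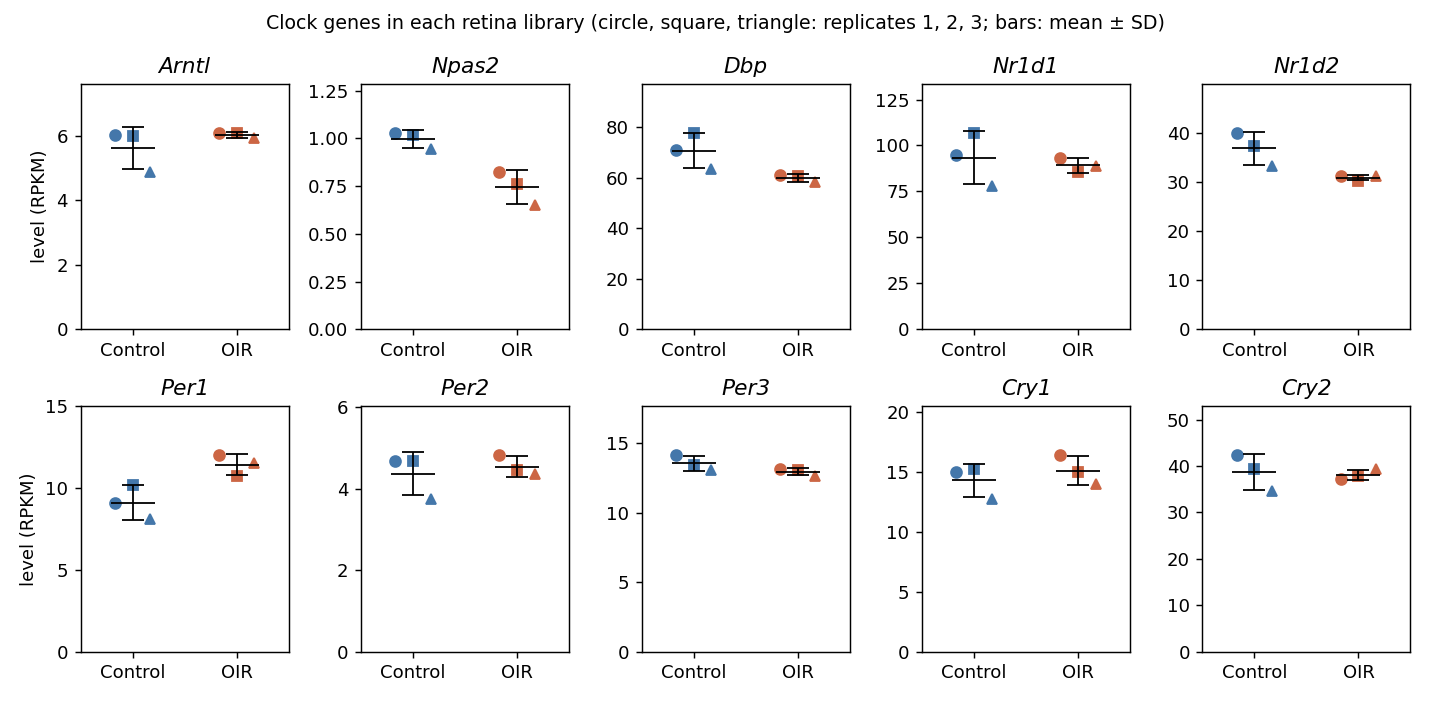
Level in RPKM (vertical axes, from 0) of each clock gene in the 3 Control and 3 OIR libraries, with symbols for the replicate numbers and bars for the mean ± SD. The OIR points lie above all Control points for Per1 and below them for Nr1d2, Dbp and Npas2, and the groups overlap for the other 6 genes.

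The comparison of OIR with Control asks whether clock RNA differs in the retina with abnormal vessels. Differences were small: the ratio of the group means ran from 0.748 for Npas2 to 1.254 for Per1. Values were tested with limma on log2(RPKM + 1), and a gene was called where its Benjamini-Hochberg adjusted p was under 0.05; means are given ± SD over the 3 libraries of a group. Of the 9 members tested, Per1 was higher and Nr1d2 lower in OIR, and 7 did not pass, with 1 higher and 1 lower also by limma-voom on the recovered reads. An unadjusted p under 0.05 was found for 3 members, the third being Dbp, and for 34.0% of all genes tested. Over all 12112 genes tested, 18.8% were called, 11.6% higher and 7.22% lower, so the share of clock genes called was near the background. With the library scaling set by the median of ratios, calls over all genes were 51.2% higher genes in place of 61.7%, and Dbp joined Nr1d2 as lower. The groups did not overlap for 3 tested members (38.7% of all genes tested), 1 in the higher direction (23.6%) and 2 in the lower (15.0%). The median log2 fold change of the 9 was -0.02, and that of all genes tested was 0.03.

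Among the Period genes, whose proteins carry the repressing complex, Per1 rose and its paralogs did not pass. Per1, which light and cAMP signals also induce, was at 9.08, 10.2 and 8.08 RPKM in Control 1 to 3 and at 12.02, 10.7 and 11.5 RPKM in OIR 1 to 3. Every OIR library lay above every Control library. Its log2 fold change was 0.30 (SE 0.0873, 95% interval 0.11 to 0.49, adjusted p 0.0361). The call ended without Control 1, Control 3, OIR 1 or OIR 3, at adjusted p of 0.104, 0.0729, 0.147 and 0.105. It also ended with no filter on low values, at 0.0751, and with lens genes removed and each library rescaled to its former sum, at 0.162. With lens reads removed in place of that, a setting chosen after seeing the data, the adjusted p was 0.0312. The direction was the same throughout. Per2 was at 4.67, 4.69 and 3.75 RPKM in Control and at 4.82, 4.45 and 4.35 RPKM in OIR. OIR 1 was the highest library and Control 3 the lowest, and the groups overlapped. The log2 fold change of Per2 was 0.05 (SE 0.0913, 95% interval -0.15 to 0.25, adjusted p 0.742). Per3, the Period gene least needed for the rhythm itself, was the steadiest member in Control, at 14.1, 13.4 and 13.1 RPKM, and was at 13.2, 13.0 and 12.7 RPKM in OIR. For Per3 the groups overlapped, and the log2 fold change was -0.06 (SE 0.0658, 95% interval -0.20 to 0.09, adjusted p 0.572).

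The Cryptochrome genes, which encode the strongest repressors of the CLOCK and BMAL1 pair, gave no call. Cry1 was at 15.0, 15.2 and 12.8 RPKM in Control and at 16.4, 15.0 and 14.0 RPKM in OIR. The highest library was OIR 1 and the lowest Control 3, with the rest between them. Its log2 fold change was 0.07 (SE 0.0862, 95% interval -0.12 to 0.26, adjusted p 0.588). Cry2, the more abundant of the pair, was at 42.4, 39.4 and 34.6 RPKM in Control and at 37.1, 37.9 and 39.3 RPKM in OIR. All OIR libraries lay inside the Control range, and the log2 fold change was -0.02 (SE 0.0775, 95% interval -0.19 to 0.15, adjusted p 0.873).

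Of the REV-ERB genes, which link the negative arm to Arntl, Nr1d2 fell and Nr1d1 did not pass. Nr1d1 was at 94.7, 107 and 78.1 RPKM in Control and at 93.3, 85.4 and 88.6 RPKM in OIR. Control 2 was the highest and Control 3 the lowest of the 6, which leaves the OIR libraries between them. The log2 fold change of Nr1d1 was -0.05 (SE 0.102, 95% interval -0.28 to 0.17, adjusted p 0.749). Nr1d2 was at 40.0, 37.3 and 33.2 RPKM in Control and at 31.2, 30.2 and 31.2 RPKM in OIR. All 3 OIR libraries were below the lowest Control, and their SD was 1.75% of the mean, against 9.33% in Control. A larger SD in Control was shared by 9 of the 10 members and by 56.0% of all genes tested. The log2 fold change of Nr1d2 was -0.24 (SE 0.0744, 95% interval -0.41 to -0.08, adjusted p 0.0446). The call of Nr1d2 ended without each library other than Control 3, at adjusted p from 0.0694 to 0.173. It also ended with no filter on low values, at 0.0808, and with the replicate number as a block, at 0.0509. Exons of Nr1d1 share 263 bases with the thyroid hormone receptor gene Thra on the opposite strand, and the use of strand in counting is not given in the sources used here, so reads of the pair cannot be told apart there; Thra was at 114 RPKM in the Control group and 105 RPKM in OIR.

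Dbp, the output factor, was lower in each OIR library but did not pass. It was at 70.8, 77.8 and 63.6 RPKM in Control and at 61.0, 60.5 and 58.3 RPKM in OIR. The highest OIR value was under the lowest Control value, that of Control 3. The log2 fold change was -0.23 (SE 0.0769, 95% interval -0.40 to -0.06, adjusted p 0.0582). It passed with median-of-ratios or upper-quartile scaling, at adjusted p of 0.0231 and 0.0204, without Control 3, at 0.0179, and without Control 3 and OIR 2, the libraries richest in lens, at 0.00579. Exons of Dbp share 539 bases with Sphk2 on the opposite strand, which was at 4.53 RPKM in the Control group and 5.37 RPKM in OIR.

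In the positive arm, Arntl did not pass and Npas2 was too low to be tested. Arntl, the 1 partner the loop cannot do without, was at 6.01, 6.00 and 4.87 RPKM in Control and at 6.08, 6.09 and 5.92 RPKM in OIR. Without Control 3, the other 5 libraries lay between 5.92 and 6.09 RPKM. The log2 fold change was 0.09 (SE 0.0867, 95% interval -0.10 to 0.28, adjusted p 0.504). Npas2, which can stand in for CLOCK, was at 1.03, 1.02 and 0.943 RPKM in Control and at 0.826, 0.763 and 0.648 RPKM in OIR, and rested on 105 to 163 reads per library. Its OIR values were all below its Control values. Only 2 libraries reached the minimum of 1 RPKM, of the 3 required, so Npas2 was left out of the test, and with no filter its log2 fold change was -0.20, with an adjusted p of 0.112.

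The arms were set side by side. The mean of log2(RPKM + 1) over the 2 positive-arm genes was 1.86 ± 0.0906 (SD) in Control and 1.81 ± 0.0467 in OIR. On this scale the difference of OIR from Control was 0.09 for Arntl and -0.20 for Npas2. The lower positive-arm mean thus came from Npas2, which was too low to be tested. Clock is not among the members and is not part of this mean. Over the 7 negative-arm genes it was 4.38 ± 0.131 in Control and 4.38 ± 0.0398 in OIR. The difference of negative minus positive was 2.53, 2.55 and 2.47 in Control 1 to 3 and 2.58, 2.53 and 2.61 in OIR 1 to 3. The groups thus overlapped on the log2(RPKM + 1) scale, and overlap was not taken at another pseudocount. The mean difference was higher by 0.06 in OIR, by 0.0359 to 0.0806 with 1 library left out, and by 0.15 with a pseudocount of 0.1. No test was made of these means, since the members were chosen with results known.

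Ratios of RPKM within a library do not depend on how libraries are scaled, and they set single genes of the loop against each other. The ratio of Dbp to Arntl was 11.8, 13.0 and 13.1 in Control and 10.04, 9.93 and 9.85 in OIR, so that the groups did not overlap. Nr1d1 to Arntl was at 15.8, 17.8 and 16.0 in Control and 15.4, 14.0 and 15.0 in OIR, again without overlap, though Nr1d1 itself overlapped. Both ratios were lower in OIR. Taken against Arntl in the same way, 28.9% of all other genes tested were lower in every OIR library and 8.59% higher, so a lower ratio was common. The other ratios were added after the values were seen, and shares over all genes were taken only for ratios to Arntl. Nr1d2 to Arntl was 6.65, 6.21 and 6.81 in Control and 5.13, 4.97 and 5.27 in OIR, and Per1 to Arntl was 1.51, 1.70 and 1.66 in Control and 1.98, 1.76 and 1.95 in OIR. The first was lower and the second higher in every OIR library. Between paralogs, Per1 to Per2 was 1.95, 2.17 and 2.15 in Control and 2.49, 2.41 and 2.65 in OIR without overlap, while Nr1d1 to Nr1d2 was 2.37, 2.87 and 2.36 in Control and 3.00, 2.82 and 2.84 in OIR and overlapped. Cry1 to Cry2 and Per2 to Per3 overlapped as well.

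**Figure D2:**
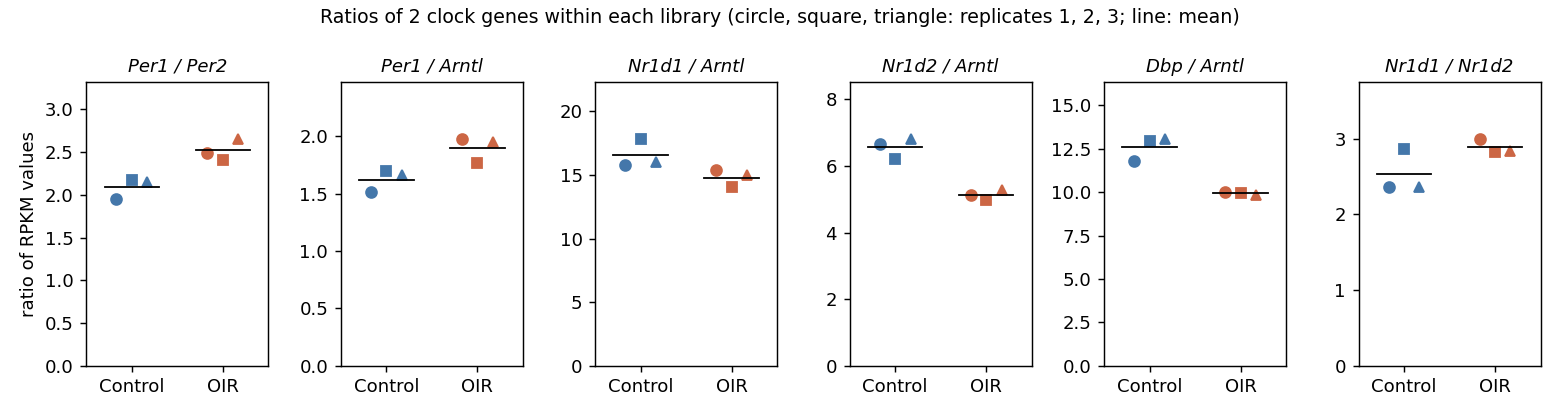
Ratio of the RPKM values of 2 clock genes within each library (vertical axes, from 0), for 3 Control and 3 OIR libraries, with symbols for the replicate numbers and a line at the group mean. Per1 to Per2 and Per1 to Arntl are higher in all OIR libraries, the ratios of Nr1d1, Nr1d2 and Dbp to Arntl are lower in all of them, and Nr1d1 to Nr1d2 overlaps.

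Other genes of the clock network were taken from 4 lists with 20 genes, of which 18 could be tested; 2 were higher and 2 lower in OIR. Further repressors of the loop held both higher genes, among 5 tested. Bhlhe40 (DEC1), which competes for E-boxes and is also a known target of hypoxia signalling, was at 15.3, 14.9 and 13.7 RPKM in Control and 24.6, 20.4 and 29.6 RPKM in OIR. It had the largest fold change of the clock genes tested here, with all OIR values above all Control values. Its log2 fold change was 0.71 (SE 0.116, 95% interval 0.45 to 0.97, adjusted p 0.00497), and the call held under each of 15 alternatives. Ciart (CHRONO), the repressor whose promoter is printed above, rose from 4.54 ± 0.194 to 6.07 ± 0.294 RPKM (log2 fold change 0.35, adjusted p 0.0114). Its call ended without Control 1 or OIR 3, at 0.0531 and 0.0576, and with lens genes removed and the former sum restored, at 0.138. With lens reads removed in place of that, the setting chosen after seeing the data, the adjusted p of Ciart was 0.0160. Bhlhe41 (DEC2), the paralog of Bhlhe40, was at 14.0 ± 1.68 RPKM without and 16.2 ± 1.33 RPKM with OIR (adjusted p 0.164). Nfil3, which opposes DBP at D-boxes, was at 3.88 ± 0.478 RPKM without and 4.75 ± 0.279 RPKM with OIR (adjusted p 0.0910). Timeless, which was tested only because its Control values reached 1 RPKM, was at 1.15 ± 0.207 RPKM without and 0.852 ± 0.00629 RPKM with OIR (adjusted p 0.142).

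Of 3 further activators tested, 1 was lower and none higher, and the same counts were found with limma-voom. Rorb, a ROR receptor gene that also acts in retinal development, fell from 29.9 ± 3.47 to 24.04 ± 0.930 RPKM (log2 fold change -0.30, adjusted p 0.0310). Without Control 1, Control 2, OIR 1 or OIR 3 the call of Rorb ended, at 0.0803, 0.103, 0.129 and 0.0672, and it ended with no filter on low values, at 0.0712. Its paralog Rora was at 17.1 ± 2.004 RPKM without and 16.3 ± 0.277 RPKM with OIR, with an adjusted p of 0.662. Clock, the partner of Arntl, was at 14.6, 13.2 and 11.5 RPKM in Control and 11.8, 11.8 and 11.1 RPKM in OIR. Control 3 lay inside the OIR range and the other Controls above it, and the log2 fold change was -0.16 (SE 0.0862, 95% interval -0.35 to 0.03, adjusted p 0.216). Without Control 3 it passed as lower, at an adjusted p of 0.0428. Arntl2, a low paralog of Arntl, was at 0.516 ± 0.237 RPKM without and 0.725 ± 0.132 RPKM with OIR and was not tested.

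Of the other outputs, 1 of 4 tested was lower. Hlf, a D-box factor of the same family as DBP, was at 52.5, 49.9 and 40.2 RPKM in Control and 32.7, 37.9 and 29.8 RPKM in OIR. Each OIR library was below each Control library. Its log2 fold change was -0.49 (SE 0.113, 95% interval -0.75 to -0.24, adjusted p 0.0190), and the call ended without Control 1, Control 2, OIR 1 or OIR 3, at 0.0697, 0.0681, 0.0886 and 0.0556, and with no filter on low values, at 0.0514. Tef, of the same family, was at 49.0 ± 3.63 RPKM without and 45.2 ± 0.716 RPKM with OIR (adjusted p 0.275). The ratio of Hlf to Tef was 1.03, 0.976 and 0.898 in Control and 0.734, 0.826 and 0.663 in OIR, lower in every OIR library, and so was that of Dbp to Tef, which went from 1.39, 1.52 and 1.42 in Control to 1.37, 1.32 and 1.30 in OIR. The share of all genes with a lower ratio to Tef was not taken. Wee1, a cell cycle kinase gene with E-boxes, was at 2.07 ± 0.311 RPKM without and 1.501 ± 0.312 RPKM with OIR (adjusted p 0.0880), and Nampt, of NAD synthesis, at 11.8 ± 0.863 RPKM without and 13.0 ± 0.632 RPKM with OIR (adjusted p 0.223). None of 6 tested genes for the turnover of clock proteins passed with limma or limma-voom, and none had an unadjusted p under 0.05. They were the casein kinase genes Csnk1d and Csnk1e, the kinase gene Gsk3b, the ubiquitin ligase genes Btrc and Fbxw11 and the deubiquitinase gene Usp2. Their log2 fold changes ran from -0.12 for Gsk3b to 0.17 for Usp2, and Fbxl21 was too low to be tested. Gsk3b passed as lower without Control 3, at an adjusted p of 0.0299, and so did Tef, at 0.0423.

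**Figure D3:**
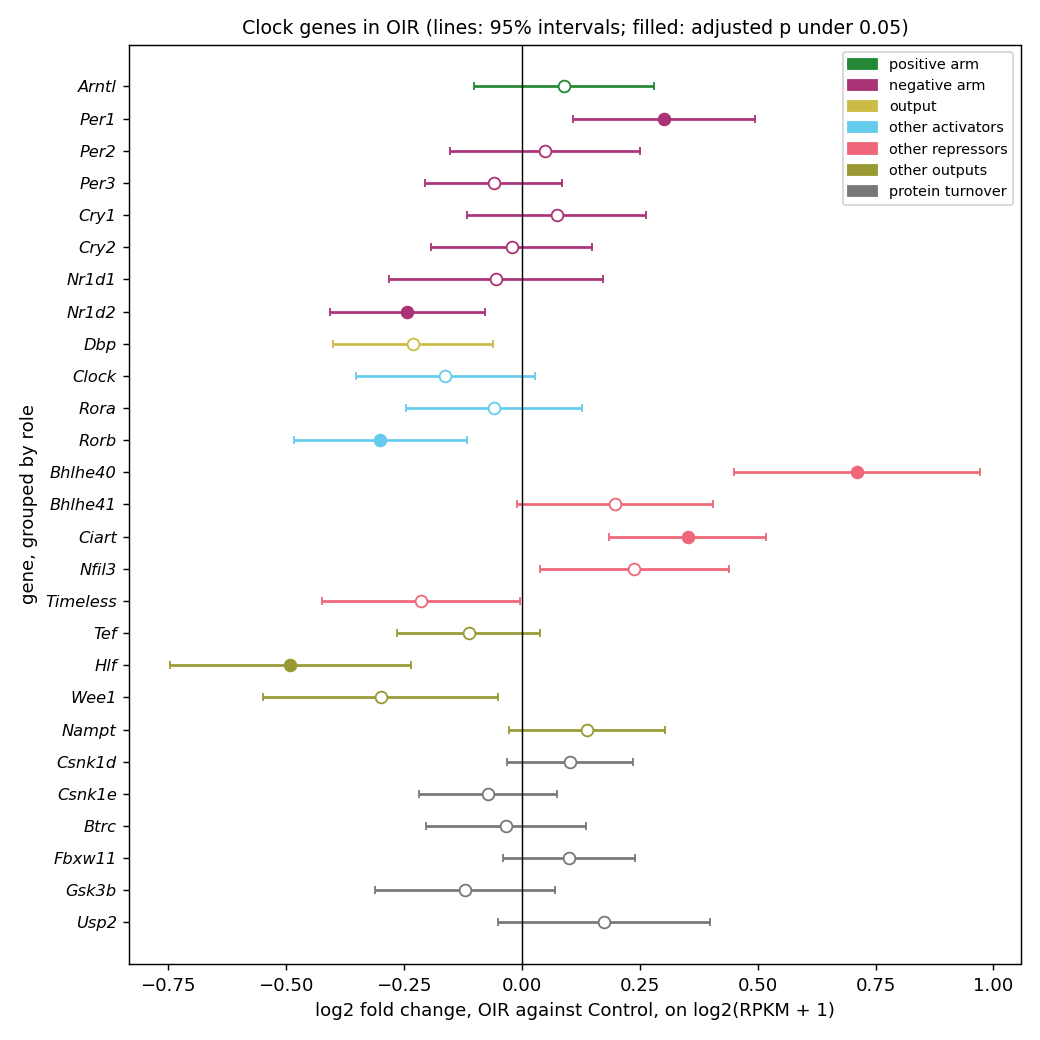
Log2 fold change of OIR against Control on the log2(RPKM + 1) scale (horizontal axis) with its 95% interval for 27 tested clock genes, coloured by role, filled where the adjusted p was under 0.05. Filled points to the right are Per1, Bhlhe40 and Ciart, and filled points to the left are Nr1d2, Rorb and Hlf.

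Genes that the retinal clock times or that set it gave 1 higher and 1 lower call among 7 tested. Drd4, the dopamine receptor gene of photoreceptors whose RNA is rhythmic, was at 57.2, 66.3 and 58.5 RPKM in Control and 100.1, 80.6 and 106 RPKM in OIR. All OIR libraries were above all Controls, with a log2 fold change of 0.64 (SE 0.102, 95% interval 0.41 to 0.87, adjusted p 0.00385). Th, the gene of the enzyme that makes dopamine, fell from 3.15 ± 0.162 to 1.60 ± 0.140 RPKM (log2 fold change -0.68, adjusted p 0.000877). Drd2 was at 20.6 ± 2.59 RPKM without and 17.5 ± 1.70 RPKM with OIR (adjusted p 0.134), and passed as lower in 3 of 15 alternatives. The cyclase gene Adcy1, also rhythmic in photoreceptors, was at 34.5 ± 4.07 RPKM without and 38.3 ± 0.867 RPKM with OIR (adjusted p 0.227).

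Lists of immediate early and glucocorticoid-responsive genes were read beside Per1. Of 8 immediate early genes tested, which answer light, activity and injury within minutes, 5 were higher and none lower. Fos rose from 10.6 ± 1.61 to 21.8 ± 4.16 RPKM, Nr4a1 from 7.29 ± 0.295 to 12.04 ± 2.31 RPKM, Ier2 from 10.49 ± 1.35 to 15.0 ± 1.55 RPKM and Egr1 from 13.3 ± 2.65 to 23.3 ± 4.35 RPKM, with adjusted p of 0.00847, 0.00635, 0.0111 and 0.0295. The fifth was Sik1, named after its values were seen, from 2.68 ± 0.0866 to 3.55 ± 0.454 RPKM (adjusted p 0.0422). The call of Egr1 ended without Control 1 or any 1 of the OIR libraries, at 0.0564 to 0.0725, and that of Ier2 without OIR 1, at 0.0553. Their summed level over all 12 listed genes was 58.1 to 71.5 RPKM without OIR and 92.7 to 132 RPKM with it. The 3 tested genes that did not pass, also named after their values were seen, were Junb, Crem and Dusp1. Their log2 fold changes were 1.51, -0.15 and -0.0006, with adjusted p of 0.0508, 0.321 and 0.994. Per1 moved in the direction of the called genes of this list, and their part in its rise was not tested. Of 6 glucocorticoid-responsive genes tested, none passed with limma or limma-voom, and 3 had an unadjusted p under 0.05. Fkbp5 was higher, at 8.08 ± 0.200 RPKM without and 9.38 ± 0.462 RPKM with OIR. Sgk1 was lower, at 11.4 ± 1.37 RPKM without and 9.55 ± 0.418 RPKM with OIR. Tsc22d3 was lower as well, at 10.4 ± 0.757 RPKM without and 8.76 ± 1.37 RPKM with OIR. Sgk1 passed as lower in 6 of 15 alternatives, Tsc22d3 in 2 and Fkbp5 in none.

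The clock activators belong to the bHLH-PAS family, which also holds the oxygen and dioxin sensors. Of 7 such relatives tested, 3 were higher and none lower. Epas1 (HIF-2 alpha), the hypoxia factor of vessels, rose from 26.9 ± 4.10 to 34.03 ± 1.91 RPKM (adjusted p 0.0453), the dioxin receptor gene Ahr from 7.72 ± 0.723 to 11.96 ± 2.41 RPKM (adjusted p 0.0223) and its repressor gene Ahrr from 1.98 ± 0.372 to 3.15 ± 0.565 RPKM (adjusted p 0.0251). Each of these 3 calls ended without Control 1, Control 3, OIR 1 or OIR 3, and that of Ahr also without Control 2. The adjusted p was then 0.0566 to 0.167 for Epas1, 0.0554 to 0.101 for Ahr and 0.0681 to 0.108 for Ahrr. All 3 also ended with no filter on low values, at 0.102, 0.0551 and 0.0676, and Epas1 with lens genes removed and the former sum restored, at 0.1003. Hif1a was the most abundant of the family and was at 155 ± 11.9 RPKM without and 138 ± 7.84 RPKM with OIR (adjusted p 0.141). It passed as lower in 2 of 15 alternatives.

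Whole retina was measured, so fewer cells of a type and less RNA per cell cannot be told apart, and markers of several cell types moved in these libraries. Of 8 amacrine markers, 6 were lower and none higher, with a sum of 309 to 360.1 RPKM without OIR and 229.6 to 290.0 RPKM with it. Of 8 bipolar markers 3 were lower (442 to 516 and 422 to 446 RPKM), and of 8 ganglion cell markers 3 (806 to 893 and 508 to 762 RPKM). Endothelial markers were higher in 7 of 8 (55.6 to 61.8 and 93.6 to 106 RPKM). Pericyte markers were higher in 5 of 5 tested (25.6 to 28.2 and 51.4 to 66.1 RPKM). Of these, Notch3 met the filter through its OIR libraries alone, since its highest Control value was 0.885 RPKM. Microglial markers were higher in 6 of 7 tested (27.0 to 29.8 and 76.0 to 99.7 RPKM). Among photoreceptor markers, 2 of 8 rod markers were higher and none lower, and of 6 cone markers 1 was higher and 1 lower (637 to 681 and 734 to 812 RPKM). Of 8 markers of Müller glia, 3 were higher and 4 lower (2086 to 2279.9 and 1995 to 2167 RPKM). Of 4 pigment epithelium markers tested, 1 was lower and none higher, and the sums of that list did not overlap (49.9 to 63.7 and 42.7 to 49.0 RPKM). These markers and the called clock genes moved in the same OIR libraries, as any genes called in this comparison would. Within the OIR group, OIR 2 had the highest amacrine and ganglion cell sums (290 and 762 RPKM). The same library had the highest Hlf (37.9 RPKM) and the lowest Per1 (10.7 RPKM) and Bhlhe40 (20.4 RPKM) of the group. It also had the lowest Nr1d2, by little (30.2 RPKM, against 31.2 RPKM in OIR 1 and in OIR 3). Ciart and Rorb, at 5.96 and 24.3 RPKM, lay there between their values in OIR 1 and OIR 3. No marker of these lists was at 0 in all libraries. The part of cell makeup in these results was not tested.

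The direction of Per1, Nr1d2 and Dbp held under each of the 15 alternatives. Per1 passed in 9 of 15 alternatives, with log2 fold changes from 0.21 to 0.38, Nr1d2 in 8 of 15, from -0.34 to -0.18, and Dbp in 6 of 15, from -0.33 to -0.16. Each of these counts includes the removal of lens reads, which was chosen after seeing the data. The adjusted p was 0.0312 for Per1, 0.0152 for Nr1d2 and 0.0227 for Dbp with that setting. Of the 6 other tested members, none passed under any of the 15, and all but Per3 changed sign in at least 1.

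**Figure D4:**
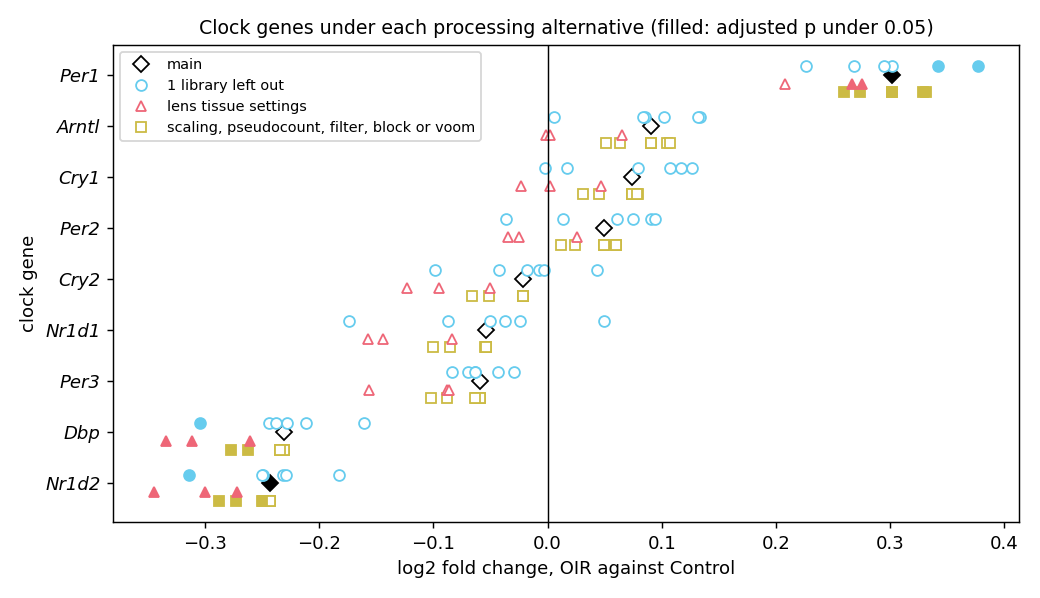
Log2 fold change of OIR against Control (horizontal axis) for the 9 tested clock genes under the main setting and 15 alternatives, by kind of alternative, filled where the adjusted p was under 0.05. Per1 stays to the right of 0 and Dbp, Nr1d2 and Per3 to the left, while Arntl, Cry1, Per2, Cry2 and Nr1d1 reach both sides.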

How the data were processed

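RNA-seq of whole retina from 3 Control and 3 OIR libraries was used. The authors deposited 1 table of values per library, and the values are RPKM, which was read from the values themselves because neither the labels nor the file headers name the unit. Bowtie2 2.0.6 and TopHat2 2.0.12 were used, per the submitters' processing notes. The build, annotation and read counter were not given in the sources used here, and the extract protocol in the labels describes duck material, so the library type is uncertain. Whole reads were recovered within 0.02 read for 17952 of 17953 genes above 0, with the absolute depth set from 67 genes, and the depths differed by at most 1.07 times.

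Genes with at least 1 RPKM in at least 3 libraries (12112 of 22173) were tested on log2(RPKM + 1) with limma 3.58.1 (R 4.3.3, trend and robust), two-sided, with Benjamini-Hochberg adjustment over all of them and a threshold of 0.05. Fold changes are on the log2(RPKM + 1) scale, on which the change of a low gene looks smaller than it is. The script was tested on simulated data. Alternatives were limma-voom on the recovered reads, other scalings, a pseudocount of 0.1, no filter, a replicate block, each library left out and 3 treatments of lens RNA, of which the removal of lens reads was chosen after seeing the data. All members and the genes of the 4 further clock lists are named (2 further genes are not reported here and are left out of these lists and their counts), and from each other list up to 4 tested genes with the smallest adjusted p. The members and lists were chosen with earlier results of these data known.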

Additional observations from a re-analysis of the deposited data

How the results depend on the processing

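Of the members, 1 was called higher and 1 lower. The higher count was 0 with no filter and with lens genes removed and the former sum restored. The lower count was 2 with median-of-ratios or upper-quartile scaling, without both lens-rich libraries and with either removal of lens RNA, and 0 with no filter. Leaving out 1 library gave 0 to 1 higher and 0 to 2 lower. The replicate block gave 1 higher and 0 lower, with Nr1d2 at an adjusted p of 0.0509. Same-numbered libraries correlated in their deviations at 0.2218, -0.4399 and -0.4138, and Control 3 correlated with OIR 2, the other lens-rich library, at 0.4929. With 3 libraries per group, these values cannot show whether the replicate numbers pair the samples. With the block, 1222 of all genes were higher and 809 lower.

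Over all genes tested, 1407 were higher and 875 lower. Limma-voom on the recovered reads called 1451 higher and 984 lower. Higher genes were 61.7% of the calls, against 51.2% with median-of-ratios scaling, 46.8% with upper-quartile scaling and 51.3% with lens reads removed. Higher calls fell to 481 with the former sum restored, where the median log2 fold change of all genes was -0.07. In Control 3 that sum held 79993 RPKM of lens genes, so restoring it raised the other genes there most. Leaving out 1 library gave 410 (without OIR 1) to 1645 higher calls. Lower calls were 1380 with upper-quartile scaling, 529 with no filter and 1877 without both lens-rich libraries, and 198 (without OIR 1) to 1281 with 1 library left out. The 8 lists of other clock, rhythm, immediate early, glucocorticoid and PAS genes held 11 higher and 3 lower calls, with 12 lower without both lens-rich libraries, and 5 to 11 higher and 1 to 9 lower with 1 library left out. The difference between the arms moved from 0.06 to 0.15 with a pseudocount of 0.1.

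Signs turned only for genes that never passed. Without both lens-rich libraries the log2 fold change was -0.001 for Arntl and -0.0251 for Per2. With the former sum restored it was -0.0348 for Per2, -0.0232 for Cry1 and -0.0001 for Fbxw11. With 1 library left out it ran from -0.0362 to 0.0937 for Per2, -0.002 to 0.127 for Cry1, -0.0989 to 0.043 for Cry2, -0.174 to 0.0494 for Nr1d1 and -0.107 to 0.0237 for Btrc. The causes were not tested. Npas2, at 105 to 163 reads per library, was the member most limited by depth.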

Other observations

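After centring on the group means, the correlation over the 6 libraries with Dbp was 0.948 for Nr1d1, the highest of the 8 other tested members, and 0.448 for Per3, the lowest. That with Arntl was 0.943 for Per2, the highest, and 0.752 for Per1 and for Per3, the lowest. The genes most like Dbp were Polrmt (0.9997), Kcmf1, Tmem198, Ppp1r12b and Nlgn4l (0.997), and those most like Arntl were Zfp189 (0.9997), Tent4b, Scaf8, Csnk1d and Phf21a (0.999). Such values were common: 5.87% of 12111 genes were above 0.9 with Dbp and 9.66% with Arntl. The libraries share depth and the low values of Control 3, and 6 points centred on 2 means leave few free values, so these are descriptions.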
